A study of Mus musculus with 20 samples.

Results

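A set of 45 mouse genes was described that stood highest in trunk-like structures grown with a late addition of CHIR99021, a small molecule that inhibits the kinase GSK3 and so activates canonical WNT signalling. They were chosen from 54446 genes by their deposited abundance (TPM, a transcript abundance that is corrected for length and scaled to the same total in each library). A gene was taken when its mean TPM was at least 5 in both groups with added CHIR99021 and when its mean TPM + 1, in each of these groups, was at least 2 times that of each other group. Genes named Wnt, Fzd, Hox, Cdx or Col and 12 single genes, most of them known WNT target or feedback genes, were left out by name. In both groups 10493 genes reached this minimum, 51 of them met the ratio as well, and 6 of those were left out by name (Wnt11, Wnt6, Apod, Col4a6, Nkd1 and Notum).

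All structures came from mouse embryonic stem cells of strain F1G4 that carried T::H2B-mCherry and Sox2::H2B-Venus, nuclear reporters for Brachyury and Sox2. Wells were seeded with 200 to 250 cells freed from feeder cells, and every group received a pulse of 3 µM CHIR99021 after 48 h, so the groups without later CHIR99021 are not untreated. The 5 groups, with 3 biological replicates each per the labels, were structures at 96 h (96h, 10 pooled structures per library) and 4 groups at 120 h (6 pooled structures per library). Of these, Gastruloid had no Matrigel, and TLSMG was embedded in this basement membrane gel. TLSMGC had Matrigel and later CHIR99021, and TLSMGCL had LDN, a compound that blocks BMP receptor kinases, in addition to both. No group had the later CHIR99021 without Matrigel, and doses of the later CHIR99021 and of LDN are not given in the sources used here. Structures were picked for an asymmetric pole, so the libraries describe picked structures. In pooled structures, more cells of a type and more RNA per cell cannot be told apart.

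In the canonical WNT pathway, a WNT ligand or an inhibitor of GSK3 lets beta-catenin accumulate, enter the nucleus and act with TCF/LEF factors on target genes. Many of these targets encode inhibitors of the same pathway, which makes a negative feedback loop. In the embryo's tail end, WNT signalling keeps progenitors of the trunk, while retinoic acid from more anterior mesoderm opposes it and somites form between them.

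The 45 genes comprised 40 protein-coding genes and 5 noncoding or pseudogene entries. Their summed abundance ran from 457 to 599 TPM over the 9 libraries of 96h, Gastruloid and TLSMG, and from 2205 to 2877 TPM over the 6 libraries with added CHIR99021. These values chose the genes and are given as a description. Means are given ± SD over the 3 libraries of a group. The margin, the lower of the 2 CHIR99021 groups over the highest other group in mean TPM + 1, had a median of 2.69 and reached at least 3 for 18 genes, at least 5 for 6 genes and at least 10 for 2 genes, Slc25a48 and Zic1. The highest other group was 96h for 17 genes, Gastruloid for 14 and TLSMG for 14. For 44 of the 45 genes all 6 libraries with later CHIR99021 lay above all 9 others, which held for 3.23% of all 14290 genes tested, and the rule itself used these values. The exception was Cdkn1a.

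The 4 genes just inside the ratio of 2 were Wfikkn1 (margin 2.01), Zfas1 (2.04), Epha7 (2.04) and Ntm (2.06). The 4 just outside were Ddit4l (1.997), Rel (1.993), Gm28285 (1.98) and Macrod2 (1.979). Ddit4l, for example, averaged 17.9 TPM in TLSMGC and 26.1 TPM in TLSMGCL against 8.44 TPM in TLSMG, and Rel 10.9 and 8.55 TPM against 3.79 TPM at 96 h. The edge of the set therefore falls within a continuous range of margins. A total of 20 further genes met the rule in TLSMGC only and 21 in TLSMGCL only, counted after names were left out.

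**Figure D1:**
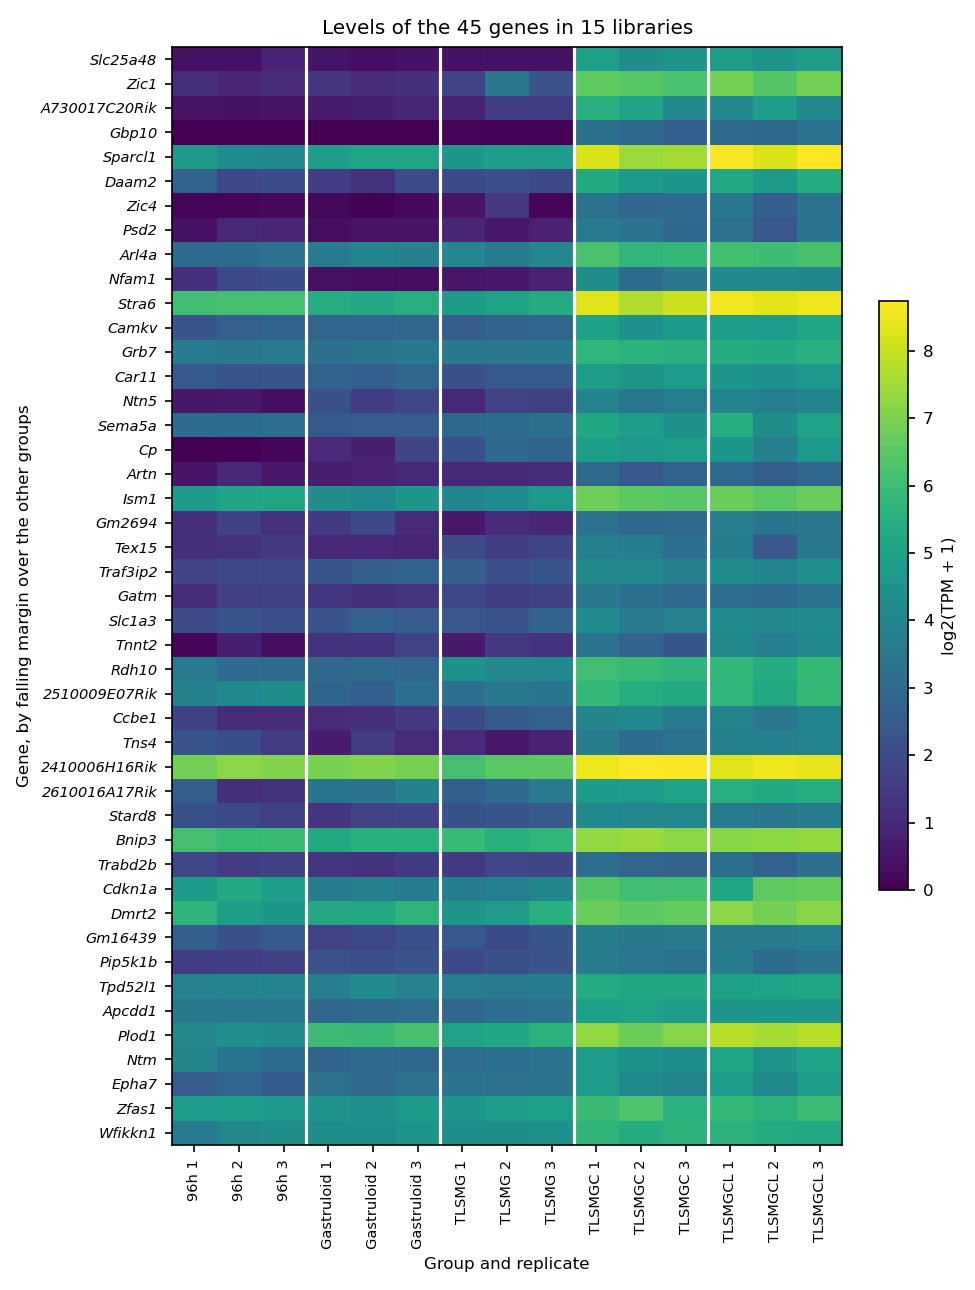
Abundance of each of the 45 genes (rows, by falling margin) in each of the 15 libraries (columns, white lines between groups), as log2(TPM + 1) on a colour scale. The 6 libraries of TLSMGC and TLSMGCL stand above the other 9 in every row except Cdkn1a, where TLSMGCL replicate 1 (33.6 TPM) lies below 96h replicate 2 (37.9 TPM).

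Promoter sequences of RefSeq on GRCm38.p6, 250 bases before to 50 after each start site, were matched by symbol to 30 of the 45 genes, which gave 43 promoters. Cores of the TCF/LEF motif (CTTTGAT and CTTTGAA, either strand) stood in 3 of these 43 promoters (6.98%), against 8.65% of all 32851 promoters of the table and 5.75% of 12302 promoters of genes tested here. Cores of the CDX motif (TTTATTG and TTTATGG, either strand) stood in 5 of 43 (11.6%), against 7.20% and 3.89%. CDX factors are homeodomain factors of the posterior embryo. Both motifs can be read from the promoters below, which are shown because they hold the 3 TCF/LEF matches of the set and a match in Daam2, its WNT signalling gene with the largest margin. Each is 5′ to 3′ on the gene's strand, with the matched cores in capitals. A Daam2 promoter (chr17:49564288-49564587, minus strand) holds a CDX core 55 bases before the start, and a Zic4 promoter (chr9:91368722-91369021, plus strand) a TCF/LEF core 21 bases after it. A Stra6 promoter (chr9:58129099-58129398, plus strand) holds a TCF/LEF core 145 bases before the start. A Stard8 promoter (chrX:99042331-99042630, plus strand) holds a CDX core 230 and a TCF/LEF core 181 bases before the start. The Zic4, Stra6 and Stard8 promoters shown lie inside their genes, past the annotated gene starts. The Zic4 start used further below is the gene start at chr9:91362413.
Daam2: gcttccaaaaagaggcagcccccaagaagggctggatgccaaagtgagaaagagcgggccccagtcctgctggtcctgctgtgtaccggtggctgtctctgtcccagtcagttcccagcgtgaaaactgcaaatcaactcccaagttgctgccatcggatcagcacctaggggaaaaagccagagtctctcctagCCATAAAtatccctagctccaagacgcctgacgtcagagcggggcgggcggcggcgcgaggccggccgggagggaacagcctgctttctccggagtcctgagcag
Zic4: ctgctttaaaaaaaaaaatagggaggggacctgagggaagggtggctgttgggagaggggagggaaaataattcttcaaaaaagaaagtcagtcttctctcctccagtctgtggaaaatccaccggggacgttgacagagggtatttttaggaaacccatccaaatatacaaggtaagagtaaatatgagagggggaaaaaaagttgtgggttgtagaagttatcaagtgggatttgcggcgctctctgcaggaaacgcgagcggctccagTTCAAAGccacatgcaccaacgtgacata
Stra6: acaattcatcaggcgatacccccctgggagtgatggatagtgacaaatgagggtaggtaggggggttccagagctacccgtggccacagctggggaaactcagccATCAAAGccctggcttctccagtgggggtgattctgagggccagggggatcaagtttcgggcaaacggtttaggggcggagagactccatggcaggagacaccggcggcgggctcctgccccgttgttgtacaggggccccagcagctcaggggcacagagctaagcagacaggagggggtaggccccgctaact
Stard8: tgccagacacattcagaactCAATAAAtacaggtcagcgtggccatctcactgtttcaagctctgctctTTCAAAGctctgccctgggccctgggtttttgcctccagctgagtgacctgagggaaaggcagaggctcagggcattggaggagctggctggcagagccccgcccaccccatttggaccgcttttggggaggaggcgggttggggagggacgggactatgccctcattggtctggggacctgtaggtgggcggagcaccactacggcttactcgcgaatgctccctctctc
The other matches were CDX cores in a second Stra6 promoter, in Cp and in a Daam2 promoter that overlaps the one printed. Both Daam2 promoters hold the same site, which was therefore counted in each of them. Counted by gene, 3 of 30 (10%) held a TCF/LEF core, against 9.88% of all genes of the table and 6.87% of tested genes. A CDX core was held by 4 of 30 (13.3%), against 8.32% and 4.81%. Median GC content was 61.0% for the 43 promoters and 61.3% for those of tested genes, and the ratio of observed to expected CpG was 0.574 against 0.766.

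Of the 45 genes, 3 act directly in WNT signalling. Apcdd1 (ENSMUSG00000071847.12), a membrane glycoprotein that binds WNTs and inhibits the pathway, was at 10.3, 10.7 and 10.5 TPM in the 3 libraries of 96h, 6.58, 7.19 and 7.697 TPM in Gastruloid and 6.66, 8.21 and 8.55 TPM in TLSMG. It reached 30.5, 31.4 and 27.1 TPM in TLSMGC and 23.8, 23.5 and 22.3 TPM in TLSMGCL. Every library of 96h lay above those of Gastruloid and TLSMG, and the TLSMGCL libraries all lay below the TLSMGC libraries.

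Trabd2b (ENSMUSG00000070867.4), also called TIKI2, is a membrane protease that cleaves and inactivates WNT ligands. It stood at 1.78, 2.63 and 2.54 TPM in TLSMG, 7.95, 6.16 and 5.93 TPM in TLSMGC and 8.07, 5.57 and 8.12 TPM in TLSMGCL, and its means at 96h and in Gastruloid were 2.26 ± 0.344 and 1.599 ± 0.178 TPM. It is among the low genes of the set, close to the minimum of 5 TPM. Daam2 (ENSMUSG00000040260.8), a formin that binds Dishevelled, stood at 5.56, 2.82 and 3.21 TPM at 96h, 1.98, 1.41 and 3.08 TPM in Gastruloid and 2.86, 3.405 and 2.803 TPM in TLSMG, and at 39.1, 26.1 and 23.8 TPM in TLSMGC and 37.7, 25.7 and 40.96 TPM in TLSMGCL. Its margin of 6.31 was the sixth of the set, and its TLSMGC and TLSMGCL libraries overlapped.

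The genes usually read as WNT targets did not all share this profile. In a list of 22 WNT feedback and target genes, Apcdd1 and Trabd2b belonged to the set, and 17 others were tested between TLSMGC and TLSMG. Of these 11 were higher and 1 lower in TLSMGC, against 40.9% of all genes called, 10.4% higher and 30.5% lower (limma on log2(TPM + 1), adjusted p under 0.05). Their median log2 difference was 0.62, against -0.16 over all genes. Those higher in TLSMGC were Axin2, Sp5, Notum, Nkd1, Nkd2, Dkk1, Tcf7, Lef1, Rnf43, Znrf3 and Tnfrsf19, and Ccnd1 was lower. Nkd1 and Notum are counted as higher here and in TLSMGCL against TLSMG. Both met the rule on these same values, so their rise was set by the rule and is no separate result. In TLSMGCL against TLSMG 8 were higher and 3 lower (Ccnd1, Sp8 and Kremen1), against 44.9% of all genes, 9.31% higher and 35.6% lower, with a median log2 difference of 0.41 against -0.18 over all genes. Several were also abundant at 96h, the structures nearest in time to the first pulse. Sp5, a transcription factor, averaged 98.3 ± 21.9 TPM at 96h, 7.20 ± 0.849 in TLSMG and 177 ± 18.3 in TLSMGC, and Lef1, a nuclear partner of beta-catenin, 329 ± 31.7, 68.4 ± 6.19 and 105 ± 6.86 (SD, n = 3). The rule asked for at least 2 times the level at 96h, which neither Sp5 nor Lef1 reached, while Nkd1 and Notum met the values and were left out by name. Apcdd1, with 10.5 ± 0.193 TPM at 96h and 7.81 ± 1.01 in TLSMG, was lower in TLSMG than at 96h by a log2 difference of -0.39 (adjusted p = 0.0037).

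**Figure D2:**
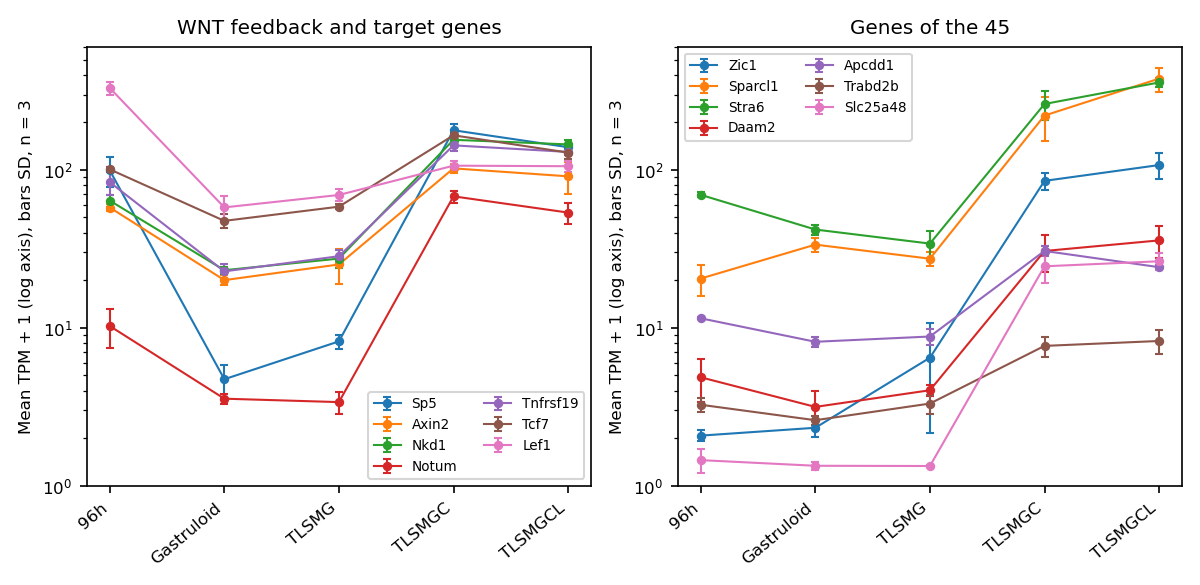
Mean TPM + 1 (log axis, bars SD, n = 3) by group for 7 WNT feedback and target genes outside the set (left) and 7 genes of the set (right). Lef1 is highest at 96h (329 TPM) and Sp5 returns in TLSMGC (177 TPM) from 98.3 TPM at 96h, while Slc25a48 averages under 1 TPM in all 3 groups without later CHIR99021.

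The set holds 3 genes for transcription factors. Zic1 and Zic4 encode zinc finger factors of the dorsal neural tube and the dorsal somite, and they lie head to head on chromosome 9 (Zic1 at chr9:91358058-91365810 on the minus strand, Zic4 at chr9:91362413-91389348 on the plus strand, start sites 3397 bases apart). Zic1 (ENSMUSG00000032368.14) was at 1.24, 0.916 and 1.07 TPM at 96h, 1.62, 1.05 and 1.32 TPM in Gastruloid and 2.37, 10.4 and 3.65 TPM in TLSMG, and at 93.4, 85.8 and 73.3 TPM in TLSMGC and 120.0, 83.1 and 116 TPM in TLSMGCL. Zic4 (ENSMUSG00000036972.14) was at 0.0823, 0.0919 and 0.164 TPM, 0.146, 0.0311 and 0.157 TPM and 0.391, 1.74 and 0.101 TPM in the same low groups, and at 8.83, 6.65 and 7.35 TPM and 10.4, 5.23 and 9.12 TPM with later CHIR99021. Both were lower in every library without later CHIR99021 than in any library with it, and in both TLSMG replicate 2 was the highest of those 9 libraries. Between that library and the lowest one with later CHIR99021, Zic1 stood at 10.4 against 73.3 TPM and Zic4 at 1.74 against 5.23 TPM. Their annotated exons overlap on opposite strands, and whether the authors' counting used strand is not given in the sources used here, so some reads of one gene may be counted to the other. Per length, Zic1 was the more abundant of the pair in every library.

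Dmrt2 (ENSMUSG00000048138.9, chr19:25672420-25679010, plus strand), a DM-domain factor of the dermomyotome, was already present in every group. It stood at 49.7, 28.8 and 23.3 TPM at 96h, 37.8, 38.6 and 50.5 TPM in Gastruloid, 22.6, 26.7 and 45.5 TPM in TLSMG, 105, 91.98 and 99.7 TPM in TLSMGC and 148, 119.7 and 143 TPM in TLSMGCL. Its 3 low groups overlapped each other, and TLSMGCL lay above TLSMGC in every library. The antisense gene 2610016A17Rik (ENSMUSG00000101089.1, chr19:25671134-25672253, minus strand), singled out after its values were seen because its start lies 167 bases from that of Dmrt2, belonged to the set as well. It stood at 5.18, 1.32 and 1.42 TPM at 96h, 9.504, 9.32 and 13.4 TPM in Gastruloid, 5.21, 6.85 and 11.1 TPM in TLSMG, 26.04, 26.6 and 31.3 TPM in TLSMGC and 44.4, 38.8 and 42.1 TPM in TLSMGCL. The pair has no exon in common, and the only other tested gene within 250 kb, Kank1, was lower in TLSMGC than in TLSMG (log2 difference -0.50, adjusted p = 0.00066).

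**Figure D3:**
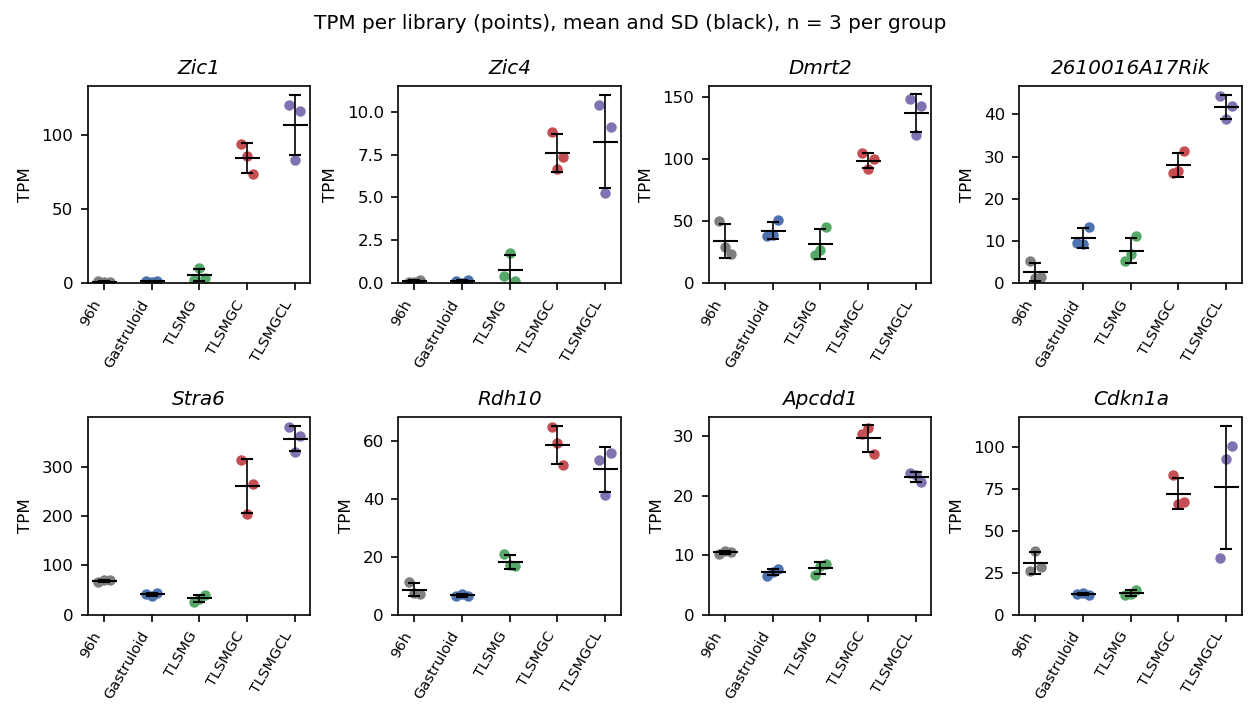
TPM in every library (points) with the mean and SD (black, n = 3) for the transcription factor genes Zic1, Zic4 and Dmrt2, the antisense gene 2610016A17Rik, the retinoid genes Stra6 and Rdh10, the WNT inhibitor Apcdd1 and the cell cycle inhibitor Cdkn1a. Each axis has its own scale from 0, and Cdkn1a in TLSMGCL has 1 library at 33.6 TPM below 2 at 92.7 and 101 TPM.

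The set held 2 genes of retinol handling. Stra6 (ENSMUSG00000032327.14), the membrane receptor that takes up retinol from its carrier protein, was the second most abundant gene of the set over the 6 libraries with added CHIR99021. It stood at 65.5, 70.1 and 69.9 TPM at 96h, 41.9, 37.5 and 43.4 TPM in Gastruloid, 26.3, 32.6 and 40.5 TPM in TLSMG, 313, 204 and 264 TPM in TLSMGC and 379, 330.1 and 361 TPM in TLSMGCL. It fell from 96 h to 120 h in both groups without later CHIR99021, and every TLSMGCL library lay above every TLSMGC library. Rdh10 (ENSMUSG00000025921.7), which oxidises retinol to retinaldehyde, stood at 11.2, 7.38 and 7.11 TPM at 96h, 6.51, 7.14 and 6.35 TPM in Gastruloid and 21.03, 17.05 and 16.6 TPM in TLSMG. It reached 64.7, 59.3 and 51.5 TPM in TLSMGC and 53.5, 41.4 and 55.9 TPM in TLSMGCL. TLSMG lay between the other low groups and the CHIR99021 groups with no overlap.

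Other genes of the retinoic acid list moved in both directions. Of the 7 tested besides Stra6 between TLSMGC and TLSMG, 2 were higher (Aldh1a2 and Crabp1) and 3 lower (Rarb, Cyp26a1 and Dhrs3), with a median log2 difference of -0.31 against -0.16 over all genes. In this comparison 10.4% of all genes were higher and 30.5% lower. Aldh1a2, which makes retinoic acid from retinaldehyde, averaged 36.6 ± 3.55 TPM in TLSMG, 135 ± 20.7 in TLSMGC and 237 ± 13.9 in TLSMGCL, but 1189 ± 146 TPM at 96h (SD, n = 3). Rarb, a receptor gene that retinoic acid induces, averaged 11.9 ± 1.35 TPM in TLSMG and 2.47 ± 0.523 TPM in TLSMGC.

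Genes for secreted, guidance and cell surface proteins formed the next group. Sparcl1 (ENSMUSG00000029309.7), a secreted matrix-associated protein, stood at 24.7, 18.1 and 15.7 TPM at 96h, 28.9, 35.3 and 33.7 TPM in Gastruloid and 23.5, 28.5 and 27.2 TPM in TLSMG. It reached 299, 173 and 188 TPM in TLSMGC and 408, 301 and 423 TPM in TLSMGCL, where its 3 libraries lay above all TLSMGC libraries by a narrow gap. Ism1, the secreted protein isthmin, averaged 31.5 ± 6.03 TPM at 96h, 19.7 ± 3.403 in Gastruloid, 18.9 ± 4.596 in TLSMG, 95.5 ± 13.1 in TLSMGC and 100.1 ± 9.16 in TLSMGCL. Plod1, the lysyl hydroxylase that modifies collagen chains before they are secreted, stood at 16.97, 20.4 and 18.9 TPM at 96h, 62.2, 58.5 and 71.96 TPM in Gastruloid, 32.03, 36.4 and 48.3 TPM in TLSMG, 159.7, 107 and 142 TPM in TLSMGC and 222, 191 and 218 TPM in TLSMGCL. The 5 groups of Plod1 did not overlap, with 96h lowest and TLSMGCL highest.

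Less abundant genes of this kind included Sema5a and Ntn5, of the semaphorin and netrin families of axon guidance proteins, and Epha7, a receptor for ephrins. Sema5a averaged 7.49 ± 0.853 TPM in TLSMG, 28.5 ± 7.72 in TLSMGC and 30.7 ± 11.9 in TLSMGCL, where its libraries ran from 18.4 to 42.2 TPM. Ntn5 averaged 0.422 ± 0.113 TPM at 96h, 2.71 ± 0.726 in Gastruloid, 1.92 ± 0.8299 in TLSMG, 11.98 ± 2.14 in TLSMGC and 14.02 ± 1.29 in TLSMGCL. Ntn5 overlaps exons of Sec1 on the other strand, and Sec1 averaged 1.09 TPM in TLSMG and 3.35 TPM in TLSMGC. Epha7 averaged 9.09 ± 0.2304 TPM in TLSMG, 19.6 ± 7.005 in TLSMGC and 24.02 ± 6.26 in TLSMGCL. Its highest library without later CHIR99021 stood at 9.29 TPM and its lowest with it at 14.3 TPM.

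Ccbe1, a secreted protein needed for lymphatic growth, averaged 1.52 ± 0.709 TPM at 96h, 1.37 ± 0.348 in Gastruloid, 4.18 ± 1.25 in TLSMG, 14.4 ± 2.83 in TLSMGC and 12.7 ± 2.31 in TLSMGCL. The 9 endothelial marker genes tested were all lower in TLSMGC than in TLSMG, against 30.5% of all genes. The cells that express Ccbe1 here were not tested. Wfikkn1, a secreted protein that binds myostatin and related ligands, had the smallest margin and averaged 19.3 ± 0.514 TPM in TLSMG, 47.2 ± 5.43 in TLSMGC and 41.8 ± 4.97 in TLSMGCL. Artn, a neurotrophic ligand of the GDNF family, averaged 1.04 ± 0.107 TPM in TLSMG, 5.61 ± 1.45 in TLSMGC and 6.203 ± 1.05 in TLSMGCL, just past the minimum of 5 TPM. Ntm, an adhesion protein of neurons, averaged 10.5 ± 3.91 TPM at 96h, 8.28 ± 0.685 in TLSMG, 22.7 ± 4.102 in TLSMGC and 29.6 ± 6.72 in TLSMGCL.

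Cp, the copper-carrying ferroxidase ceruloplasmin, was listed at 0 TPM in 2 of 3 libraries at 96h and at 0.1001 TPM in the third. It stood at 1.12, 0.707 and 2.54 TPM in Gastruloid, 3.43, 6.57 and 6.09 TPM in TLSMG, 28.9, 24.2 and 26.7 TPM in TLSMGC and 23.2, 12.9 and 24.4 TPM in TLSMGCL. Its levels rose in steps from 96h through Gastruloid and TLSMG to the CHIR99021 groups, and within TLSMGCL replicate 2 stood low. Cp overlaps exons of Hps3 on the other strand, whose means ran from 2.30 TPM at 96h to 5.38 TPM in TLSMGC.

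Metabolic and transport genes were led by Slc25a48 (ENSMUSG00000021509.5, chr13:56438355-56474239, plus strand), a mitochondrial carrier and the gene with the largest margin, 16.9. It stood at 0.299, 0.322 and 0.735 TPM at 96h, 0.415, 0.263 and 0.335 TPM in Gastruloid and 0.337, 0.304 and 0.359 TPM in TLSMG, and at 29.2, 18.98 and 22.3 TPM in TLSMGC and 27.1, 21.7 and 27.3 TPM in TLSMGCL. All 9 libraries without later CHIR99021 were under 1 TPM, and the TLSMGC and TLSMGCL libraries overlapped. Slc1a3, a glutamate transporter, averaged 4.66 ± 0.998 TPM in TLSMG, 14.3 ± 3.599 in TLSMGC and 17.6 ± 0.498 in TLSMGCL. Gatm, which makes the precursor of creatine, averaged 2.33 ± 0.308, 8.48 ± 1.71 and 7.96 ± 1.18 TPM in these groups, and Car11, a carbonic anhydrase relative without catalytic activity, 4.201 ± 0.658, 25.3 ± 3.01 and 22.8 ± 2.09 TPM. Car11 and Ntn5 lie on the same strand of chromosome 7 with 5286 bases between them. Other tested genes within 250 kb of this pair moved in both directions between TLSMG and TLSMGC (limma). For example, Dbp (log2 difference 0.84, adjusted p = 5.2e-05) and Sec1 (1.07, 0.00018) were higher in TLSMGC, and Rasip1 (-1.58, 0.00013) was lower.

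Signalling adaptors and regulators of the cytoskeleton formed another group. Arl4a, a small GTPase, averaged 14.1 ± 2.39 TPM in TLSMG, 60.3 ± 11.1 in TLSMGC and 67.4 ± 3.86 in TLSMGCL. Grb7, an adaptor of receptor tyrosine kinases, averaged 10.3 ± 0.363, 48.7 ± 4.797 and 41.2 ± 1.96 TPM, and its libraries varied little within each group. Psd2, an exchange factor for ARF GTPases, averaged 0.729 ± 0.219, 9.001 ± 2.42 and 7.41 ± 2.84 TPM. Nfam1, a receptor with a tyrosine activation motif known from immune cells, averaged 2.43 ± 1.06 TPM at 96h, 0.279 ± 0.0348 in Gastruloid, 0.604 ± 0.201 in TLSMG, 12.4 ± 6.24 in TLSMGC and 16.2 ± 1.06 in TLSMGCL.

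Camkv, a kinase-like protein that binds calmodulin, averaged 5.67 ± 0.665 TPM in TLSMG, 25.8 ± 5.29 in TLSMGC and 29.4 ± 3.71 in TLSMGCL. Tns4, a tensin at focal adhesions, averaged 2.99 ± 0.967 TPM at 96h, 0.786 ± 0.282 in TLSMG, 9.42 ± 2.25 in TLSMGC and 13.4 ± 0.382 in TLSMGCL. Stard8, a GTPase-activating protein, averaged 3.99 ± 0.431, 16.1 ± 0.996 and 11.3 ± 1.21 TPM, and its TLSMGCL libraries all lay below its TLSMGC libraries. Gbp10, an interferon-inducible GTPase, was listed at 0 TPM in 5 of the 6 libraries of 96h and Gastruloid and averaged 6.74 ± 1.56 TPM in TLSMGC and 7.52 ± 1.24 in TLSMGCL. It belongs to a family of near-identical genes, and an overlapping copy on the same strand, Gm43302, averaged 0.545 and 0.809 TPM, so the share of each copy is uncertain. The remaining genes of this group were Traf3ip2, an adaptor of the IL-17 receptor, Pip5k1b, a lipid kinase that makes a phosphoinositide of the plasma membrane, and Tpd52l1, with margins of 2.699, 2.22 and 2.14. Traf3ip2 averaged 4.27 ± 0.9598 TPM in TLSMG, 15.5 ± 2.14 in TLSMGC and 18.2 ± 2.7005 in TLSMGCL. It overlaps the antisense gene E130307A14Rik, which averaged 25.2, 21.5 and 24.2 TPM in these groups.

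Cdkn1a, the cell cycle inhibitor p21 and a target of p53, stood at 26.04, 37.9 and 28.1 TPM at 96h, 12.04, 12.8 and 11.9 TPM in Gastruloid, 11.6, 12.5 and 14.9 TPM in TLSMG, 82.9, 66.03 and 67.1 TPM in TLSMGC and 33.6, 92.7 and 101 TPM in TLSMGCL. TLSMGCL replicate 1 lay within the range of 96h, and the other 5 libraries with later CHIR99021 lay above all other libraries. Bnip3, a mitochondrial protein of mitophagy that hypoxia induces, averaged 63.7 ± 6.104 TPM at 96h, 42.8 ± 4.01 in Gastruloid, 52.7 ± 6.07 in TLSMG, 158 ± 10.6 in TLSMGC and 152 ± 7.91 in TLSMGCL. Tex15, a gene of male germ cells, averaged 2.53 ± 0.489, 11.1 ± 2.67 and 8.77 ± 4.02 TPM in TLSMG, TLSMGC and TLSMGCL. Of 6 primordial germ cell markers tested, 5 were lower in TLSMGC than in TLSMG, against 30.5% of all genes. The cells that express Tex15 here were not tested.

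The most abundant entry of the set was the noncoding gene 2410006H16Rik, with 396 ± 28.3 TPM in TLSMGC, 343 ± 28.2 in TLSMGCL and 83.8 ± 11.5 in TLSMG. Zfas1, a noncoding host gene of small nucleolar RNAs that overlaps Znfx1 on the other strand, averaged 26.5 ± 4.05 TPM in TLSMG, 61.9 ± 15.1 in TLSMGC and 55.2 ± 7.04 in TLSMGCL. The rest of the genes without an established name, which are counted and not described, were A730017C20Rik and 2510009E07Rik among the protein-coding genes, the noncoding Gm2694 and the pseudogene Gm16439.

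The rule set no condition on the difference that LDN made, but it used the means of both CHIR99021 groups, which leaves out genes that pass in only 1 of them. The counts of the set are therefore given beside those of all genes, and nothing is read from their share. Of the 45 genes, 1 was higher in TLSMGCL than in TLSMGC and 0 were lower, against 1.18% of all 14290 genes called in either direction, 0.406% higher and 0.777% lower (limma on log2(TPM + 1), adjusted over all genes). At an unadjusted p under 0.05 there were 5 higher and 3 lower, against 12.9% of all genes. The median log2 difference was 0.09 for the set and -0.04 for all genes, and 28 genes had the higher mean in TLSMGCL. The replicates of both groups did not overlap for 12 of the 45 genes, against 15.8% of all genes. Log2 differences on this scale understate the change of genes with low TPM.

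The gene called was Tnnt2, cardiac troponin T of the contractile apparatus, which stood at 9.11, 5.85 and 4.08 TPM in TLSMGC and 16.6, 12.6 and 16.2 TPM in TLSMGCL, and at 0.564, 1.75 and 1.41 TPM in TLSMG. The log2 difference was 1.18 ± 0.26 (SE), with an adjusted p of 0.048. TLSMGCL lay above TLSMGC in every library. The call did not hold in 5 of 6 refits without 1 library (adjusted p up to 0.16) and held without TLSMGC replicate 1 (0.022). With LDN the summed TPM of 8 lateral plate and cardiac markers was 2.23 to 2.61 per library, against 5.48 to 10.2 in TLSMGC, with Hand1 listed at 0 in all TLSMGCL libraries. Of the 4 of these markers tested, 1 was lower with LDN (Foxf1) and 0 were higher, against 0.777% and 0.406% of all genes. The cells that express Tnnt2 here were not tested.

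Next in size among the higher values were Sparcl1 (log2 difference 0.80 ± 0.20, adjusted p = 0.081) and Plod1 (0.64 ± 0.15, 0.072), which did not pass. Both passed on FPKM values and on TPM scaled by the median of ratios. Among the lower values were Stard8 (-0.48 ± 0.15, 0.18) and Apcdd1 (-0.34 ± 0.09302, 0.11), which did not pass either. Zic1 had 0.32 ± 0.32, Dmrt2 0.46 ± 0.26 and Stra6 0.47 ± 0.15, with adjusted p-values of 0.74, 0.49 and 0.18. Over the same comparison 3 of 8 tested BMP target genes were lower (Id1, Id3 and Msx1) and 0 were higher, and 1 of 19 tested WNT feedback and target genes was lower (Tcf7). Among all genes tested, 0.777% were lower and 0.406% higher. Of the retinoic acid list, Aldh1a2 (log2 difference 0.82) and Crabp1 (0.78) were higher among the 8 tested.

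**Figure D4:**
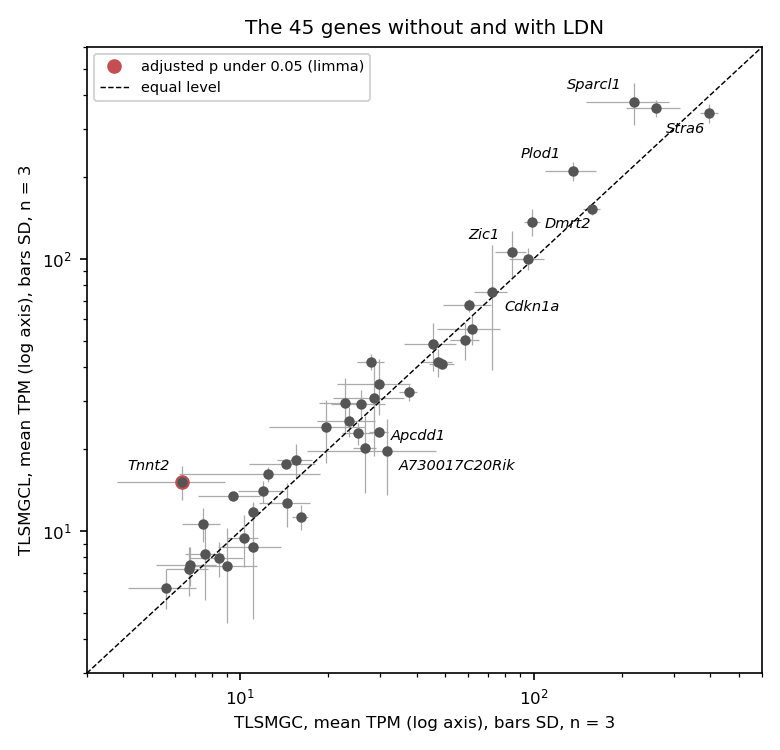
Mean TPM of the 45 genes in TLSMGC (x, log axis) and TLSMGCL (y, log axis), bars SD, n = 3, with the line of equal level. The genes lie along the line, and the 1 gene past the threshold, Tnnt2, averages 15.1 TPM with LDN and 6.35 TPM without it.

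The 3 groups without later CHIR99021 had to be low, and the rule used their means, although it set no condition on the differences among them. Counts of the set are given here too beside those of all genes, with nothing read from their share. The 3 comparisons among them share libraries, so their values are set side by side and not combined. From 96h to TLSMG 22 of the 45 genes were called, 13 higher and 9 lower in TLSMG, against 46% of all genes (33.5% higher and 12.5% lower). From 96h to Gastruloid 21 were called, 11 higher and 10 lower in Gastruloid, against 41.2% of all genes (20.8% and 20.5%). Between Gastruloid and TLSMG 11 were called, 7 higher and 4 lower in TLSMG, against 39.3% of all genes (31.5% and 7.87%). Replicates did not overlap for 27, 26 and 20 of the 45 genes in these comparisons, against 58.4%, 56.8% and 52.3% of all genes. The median log2 differences of the 45 genes were 0.09, -0.06 and 0.11 in these comparisons, and those of all genes 0.14, 0.004 and 0.13. Scaling by the median of ratios moved the median of all genes to -0.01 between 96h and TLSMG and to -0.02 between Gastruloid and TLSMG, where it gave 6 genes of the set higher and 6 lower.

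In Matrigel without later CHIR99021, Cp, Rdh10, Zic1 and Ccbe1 had the largest rises over Gastruloid. The log2 differences were 1.40 ± 0.28 for Cp (adjusted p = 0.0018), 1.32 ± 0.16 for Rdh10 (0.00012), 1.28 ± 0.32 for Zic1 (0.0066) and 1.11 ± 0.23 for Ccbe1 (0.0021). The other genes higher in TLSMG were Tex15, Stard8 and Bnip3. Among the genes that passed, those lower were Plod1 (-0.72 ± 0.15, adjusted p = 0.0028), Gm2694, 2410006H16Rik (-0.60 ± 0.10, 0.00091) and Car11 (-0.37 ± 0.12, 0.032). The calls of Gm2694, Car11, Tex15 and Bnip3 were each lost without TLSMG replicate 1 and in several other refits, and Gm2694 had -0.40 without Gastruloid replicate 2 against -0.61 with all libraries. Zic1 in TLSMG rested on unequal libraries, with replicate 2 at 10.4 TPM and the others at 2.37 and 3.65 TPM, and without replicate 2 its log2 difference was 0.77 (adjusted p = 0.0081), the smallest of these 4 genes. Its direction and call held in every refit that left out 1 library.

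Against 96h, the same 4 genes stood higher in TLSMG by log2 differences of 2.58 for Cp, 1.03 for Rdh10, 1.44 for Zic1 and 1.05 for Ccbe1, all past the threshold, and Zic1 had 0.94 without TLSMG replicate 2. In Gastruloid against 96h, Cp was higher (1.18, adjusted p = 0.0039), and Rdh10 (-0.30), Zic1 (0.16) and Ccbe1 (-0.06) did not pass. Plod1 was higher than at 96h in Gastruloid (1.72 ± 0.15, adjusted p = 1.23e-06) and in TLSMG (1.00 ± 0.15, 0.00016). So was 2610016A17Rik, by 1.83 and 1.36, while its neighbour Dmrt2 had 0.37 and -0.09, neither past the threshold. Ntn5 was higher in Gastruloid by 1.37 (adjusted p = 0.00015) and in TLSMG by 0.99 (0.0015).

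A further group of genes fell from 96 h to 120 h without later CHIR99021. Cdkn1a was lower than at 96h in Gastruloid by a log2 difference of -1.24 ± 0.30 (adjusted p = 0.0049) and in TLSMG by -1.17 ± 0.30 (0.0061). Nfam1 was lower by -1.37 ± 0.27 (0.0013) and -1.05 ± 0.27 (0.0063), and Tns4 by -0.88 ± 0.23 (0.0070) and -1.14 ± 0.23 (0.0011). Stra6 was lower by -0.73 ± 0.15 (0.0016) and -1.05 ± 0.15 (8.04e-05). Apcdd1, Bnip3, Ism1 and 2510009E07Rik were also lower in both. The call of Bnip3 in TLSMG (adjusted p = 0.036) was lost without 96h replicate 1, without TLSMG replicate 2 or 3, without a filter on low values, in a fit of the 2 groups alone and with the replicate number as a block. Ntm and Gm16439 passed in Gastruloid, where both calls were lost without 96h replicate 1 or Gastruloid replicate 1 and that of Ntm in other refits too. 2410006H16Rik passed in TLSMG, and the difference between these comparisons was not tested.

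**Figure D5:**
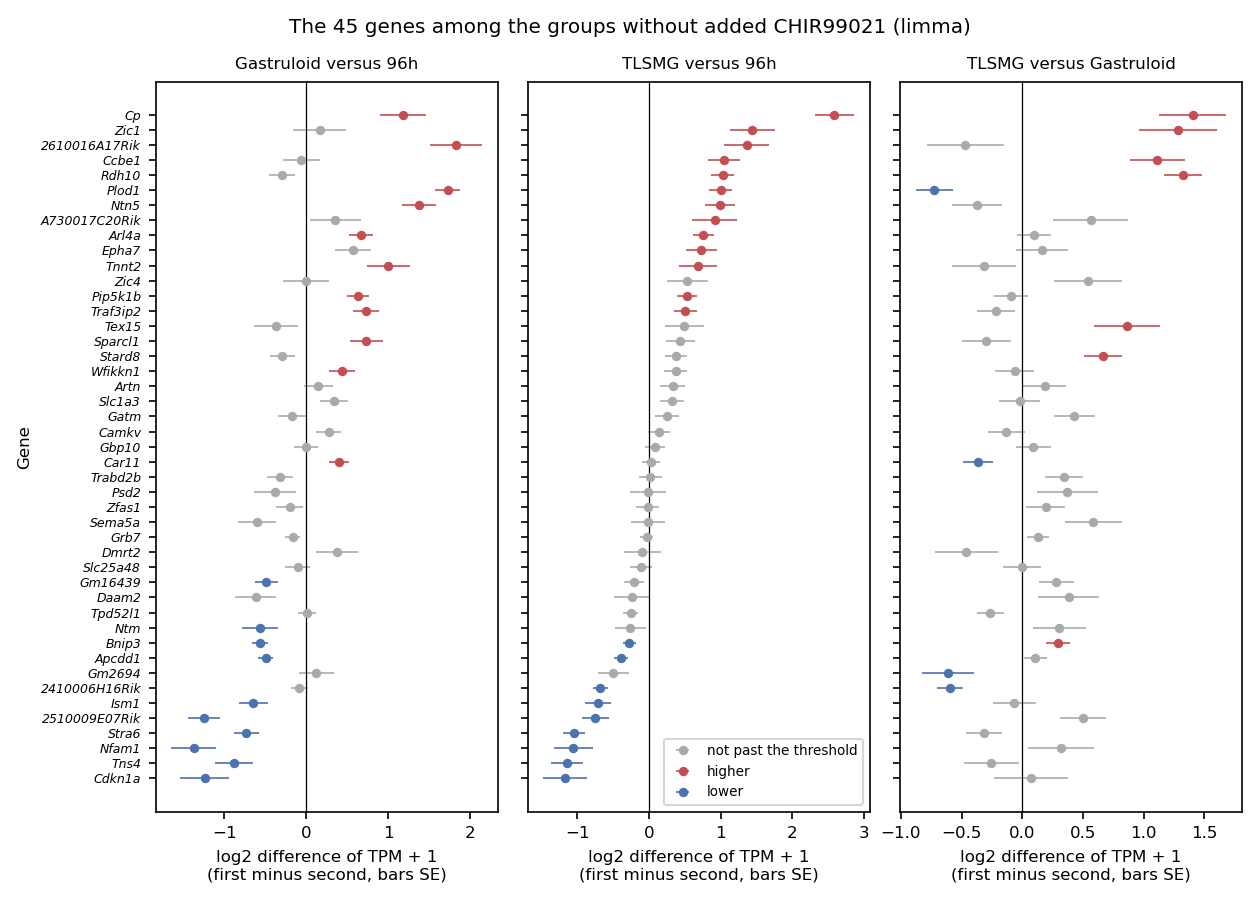
Log2 differences of TPM + 1 (first minus second group, bars SE) of the 45 genes for the 3 comparisons among 96h, Gastruloid and TLSMG, with genes past an adjusted p of 0.05 in colour (limma). Cp is highest in both comparisons with TLSMG (2.58 against 96h and 1.40 against Gastruloid), and Cdkn1a is lowest in TLSMG against 96h (-1.17).

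Marker genes of other cell types moved between the groups that define the set, and their part in it was not tested. Of all genes tested, 10.4% were higher and 30.5% lower in TLSMGC than in TLSMG, with a median log2 difference of -0.16. Between TLSMGC and TLSMG, all 9 endothelial markers were lower, and their summed TPM per library ranged over 267 to 324 for TLSMG, 25.1 to 84.5 for TLSMGC and 12.8 to 21.2 for TLSMGCL. Of 9 neural tube markers tested 7 were lower and 0 higher, with sums of 214 to 323, 63.9 to 78.2 and 76.4 to 91.0 TPM, and Dbx2 was listed at 0 in all libraries with later CHIR99021. Of 9 somite markers 7 were lower and 1 higher (Tcf15), and of 16 presomitic and tailbud genes 10 were higher and 2 lower. Of 6 surface ectoderm markers 4 were lower and 1 higher (Wnt6), and the list's sum was 55.4 to 81.6 TPM in TLSMGC and 24.3 to 31.6 TPM in TLSMG. Wnt6 alone had means of 0.138 TPM in TLSMG and 54.6 TPM in TLSMGC. Wnt6 met the rule on these values and was left out of the set by name. Its rise, which enters the list's sum, was therefore set by the rule. Krt14 was listed at 0 in all libraries, and Krt5 in all TLSMG libraries.

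The same shares of all genes, 10.4% higher and 30.5% lower, stand beside the other lists, and nothing is read from counts of lists this short. The other lists gave, in the same comparison, 2 higher and 10 lower of 17 FGF and ERK feedback genes, 2 and 5 of 8 BMP targets, 0 and 3 of 3 hedgehog genes, 0 and 5 of 8 gut endoderm markers and 0 and 3 of 4 neural crest markers. They gave 1 higher and 2 lower of 5 dermomyotome markers, 2 and 4 of 6 intermediate mesoderm markers, 0 and 1 of 4 lateral plate and cardiac markers, 0 and 2 of 4 extraembryonic markers, 1 and 1 of 3 feeder fibroblast markers and 0 and 0 of the 1 blood marker tested. The dermomyotome gene that was higher was Alx4, with 0.818 ± 0.119 TPM in TLSMG and 4.86 ± 0.456 TPM in TLSMGC (SD, n = 3). The 2 that were lower were Lbx1 and Sim1, and the list's median log2 difference was 0.03.

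The spread among replicates was larger for the set than for all genes of at least 5 TPM, in every group. The median coefficient of variation was 18.1% against 8.64% in TLSMGC and 14.2% against 9.32% in TLSMGCL. For genes of the set that reached 5 TPM in the low groups, it was 14.2% against 6.03% at 96h. The values were 11.2% against 7.21% in Gastruloid and 13.3% against 7.01% in TLSMG. TLSMGC replicate 1 was the highest of its group for 38 of the 45 genes, against 39.5% of all genes, and TLSMGCL replicate 2 was the lowest of its group for 37, against 55.2%. Without TLSMGC replicate 1 the rule gave 40 genes, all among the 45, and Artn, Epha7, Ntm, Plod1 and Tnnt2 no longer met it. Without TLSMGCL replicate 2 it gave 49, with all 45 among them. TLSMGC replicate 3 and TLSMGCL replicate 2 correlated best with each other (r = 0.988 across genes, which are not independent replicates), and the other 13 libraries with one of their own group. Relative depth, read as coverage per FPKM, ran from 3.12 to 6.84 over the libraries, and TLSMGC replicate 1 had the lowest value. Genes of the set had a median GC content of 49.5% and a longest transcript of 3330 bases in median, against 49.9% and 3003 bases for tested genes.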

How the data were processed

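Bulk RNA sequencing of 15 libraries, 3 from each of 5 groups, was used, and 5 single-cell samples and NanoString measurements were not analysed here. Libraries were stranded and paired-end, per the labels' protocols. The submitters' processing notes name cutadapt 2.4, STAR 2.7.3a, StringTie 2.0 and build mm10, and the annotation release and the strand setting are not given in the sources used here. The authors deposited 1 StringTie gene table per library, with replicates kept apart. The TPM values used here are those the authors deposited, scaled to 1 total per library, per the file headers. The deposited FPKM values, scaled by length and library size, served as an alternative. The deposited coverage, the mean read depth over exons per the file headers, served only to compare depth. TPM keep no counts, so no counting interval or detection floor was computed, and a gene at 0 is called listed at 0.

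Lines of 1 gene ID were summed. Of 54446 IDs, 53499 had the same start and end in GENCODE M21, on GRCm38. The 14290 genes whose TPM averaged at least 1, with all 45 of the set, entered limma (version 3.58.1, R version 4.3.3) as log2(TPM + 1), all 5 groups in 1 model with a mean trend, two-sided, Benjamini-Hochberg over all tested genes, threshold 0.05. The script was tested on simulated data. Python 3.11.15, pandas 2.3.3, numpy 2.4.6 and matplotlib 3.10.9 were used.

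The set, its lists and the tests were chosen with earlier results of these data known. Named genes were the 12 largest margins, the 10 most abundant, genes called between TLSMGCL and TLSMGC, the 4 largest rises and 4 largest falls in each comparison of low groups, the 4 nearest the ratio on either side, genes on a list, and genes for transcription factors, ligands and receptors. Other genes of the set were added for completeness after their values were seen. Markers and pathway lists were the WNT, FGF and ERK, tailbud, BMP, retinoic acid and hedgehog genes and 13 cell type lists, and 1 gene of the retinoic acid list is not reported here. Alternatives were other pseudocounts, filters, scalings and fits, a replicate block, and each library left out. A correction for GC content and length was added after the data were seen.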

Additional observations from a re-analysis of the deposited data

How the results depend on the processing

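The number of genes in the set was 18 with a ratio of at least 3 and 40 to 49 with each library left out. It was 34 with a minimum mean TPM of 10. On FPKM, with the same minimum of 5, it was 33, of which 32 were among the 45. Genes lost on FPKM included Zic4, Trabd2b, Gbp10, Artn, Tex15, Ntm and Tnnt2. A pseudocount of 0.1 gave 54 genes and scaling by the median of ratios 52, each with all 45 among them. Group medians gave 49, with 43 of the 45 among them. Between TLSMGCL and TLSMGC, the 1 call became 0 with a pseudocount of 0.1, without a filter on low values, with a minimum mean TPM of 5 (which leaves out Tnnt2), in a fit of the 2 groups alone, without the trend in the prior variance, and with the replicate number as a block. It became 2 with a pseudocount of 5 (Tnnt2 higher and Stard8 lower), and 3 on FPKM, with scaling by the median of ratios and with the correction for GC content and length, which was chosen after seeing the data (Tnnt2, Plod1 and Sparcl1, all higher). With each library left out it was 0 to 2. The calls between TLSMG and Gastruloid were 7 of the 45 genes without a filter, 4 with an absolute log2 difference of at least 1, and 8 to 12 with each library left out, instead of 11. On FPKM they split into 5 higher and 6 lower, and the log2 differences of all genes correlated with GC content (r = -0.41, across genes, as a description). With the absolute log2 difference of at least 1, TLSMG against 96h gave 9 instead of 22 and Gastruloid against 96h 8 instead of 21, and with each library left out these were 19 to 22 and 19 to 20. Same-numbered libraries shared no deviation on average (mean correlation of same-numbered deviations -0.02, from -0.18 to 0.10). With 3 libraries per group this cannot tell whether they were made together. The fit with the block gave 11, 20 and 22 calls in these 3 comparisons. Of 398 refits of 25 named results, 372 kept direction and call, 26 kept the direction and lost the call (Tnnt2, Gm2694, Car11, Nfam1 and Cp), and 0 reversed. These 25 results were the largest called rises and falls of each comparison. Smaller differences, such as those of Bnip3, Tex15, Ntm and Gm16439 whose lost calls are given above, were outside this tally. The cause of these changes was not tested. TPM hold no counts, so the smallest difference that this depth allows was not computed.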
